A study of Mus musculus with 19 samples.

Results

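Mammary tissue of a mouse line that lacks an enhancer of Csn1s2b (delCsn1s2b-E, 3 libraries) was compared with mammary tissue of a line that lacks the proximal enhancer of Csn3 (delCsn3-PE, 2 libraries). The 5 libraries were chosen by genotype label from the 19 total RNA-seq libraries of the series. In delCsn1s2b-E tissue, Csn1s2b mRNA stood at 41.5 ± 12.3 CPM (reads of the gene scaled to a common library size; SD, n = 3) against 189 ± 79.5 CPM (SD, n = 2) in delCsn3-PE tissue, whereas Csn3 mRNA stood at 17240 ± 4131 CPM against 874.5 ± 810.7 CPM. The libraries of the lines did not overlap for either gene, and the other 3 casein genes overlapped. Over all genes, 10.9% were higher and 10.1% lower in delCsn1s2b-E tissue without overlap. Across all genes, 9 passed the edgeR test (0.0541%) and every one was lower in delCsn1s2b-E tissue, among them 6 of 30 interferon-stimulated genes.

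All 5 libraries carry the labels C57BL/6, mammary gland and p18, that is day 18 of pregnancy. No drug, hormone, Cre or transgene is named. The labels carry no age, and the study's methods describe young adult females in pregnancy or lactation. The study made its mutants by CRISPR/Cas9 editing in C57BL/6N mice, and the labels say neither which Csn1s2b enhancer was removed nor how many founders or litters the libraries represent. The extraction text attached to the same libraries speaks of wild-type tissue in lactation, so the stage rests on the stage and title labels alone. Neither line has wild-type (WT) libraries of its own, and each line therefore served as the reference for the other: a value lower in one line is equally a value higher in the other. The number of libraries sets the precision, since the exact permutation test of 3 against 2 libraries cannot give a two-sided p below 0.2.

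Caseins are the major proteins of mouse milk and assemble with calcium phosphate into micelles. The 5 casein genes lie in 1 cluster and are switched on in the secretory epithelium during pregnancy, when prolactin activates the transcription factor STAT5, which binds enhancers together with factors such as NFIB, ELF5 and the glucocorticoid receptor. Interferon-stimulated genes form a separate programme: interferons activate transcription factors that bind the interferon-stimulated response element and raise proteins that sense or degrade viral RNA. The level of these genes in healthy tissue varies with tonic interferon and with the immune cells present.

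Between 26848053 and 30329601 reads per library were assigned to genes, and 16635 genes with at least 10 reads in total were tested. A count of 3 reads corresponded to 0.0879 to 0.118 CPM, which is taken below as the lower limit of detection. Every pair of libraries, within and between lines, differed by more than sampling noise (chi-square per gene 42.5 to 167), so none was counted as a duplicate. Nothing in the labels says that libraries of a line came from separate animals, and the tests therefore measure the spread between libraries. Caseins took 14.8 to 22.2% of the reads in genes. The third delCsn1s2b-E library stood apart in skeletal muscle mRNA: the 16 muscle genes summed to 1981 CPM there and to 18.1 to 92.5 CPM in the other 4. In the first delCsn3-PE library Gm14420 held 680 reads, whereas the other 4 libraries held 0.

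In GRCm38, the assembly also called mm10, the casein locus lies on chromosome 5, where Csn1s1 spans 87666208 to 87682578 and Csn2 87692624 to 87699630. Csn1s2a follows at 87774567 to 87788797 and Csn1s2b at 87808082 to 87824426. Csn3 closes the cluster at 87925579 to 87932665. Both deletions therefore concern the Csn1s2b and Csn3 end of 1 locus. Levels are given as CPM after TMM scaling, edgeR's correction for library composition, and differences as log2 fold change of delCsn1s2b-E minus delCsn3-PE, with the standard error (SE) and the Benjamini-Hochberg adjusted p of edgeR's quasi-likelihood test over all genes.

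Csn1s2b encodes an alpha-S2-like casein and is the least abundant of the 5 casein genes. Its level was 29.98, 54.5 and 40.0 CPM in the 3 delCsn1s2b-E libraries, from 897, 1387 and 1101 reads, and 245 and 133 CPM in the delCsn3-PE libraries, from 6545 and 4536 reads. All delCsn1s2b-E libraries were lower, and the gene stood at 21.9 ± 6.52% of the delCsn3-PE mean. The log2 fold change was -2.19 (SE 0.32, 95% interval -2.93 to -1.44) with an edgeR adjusted p of 0.118, and DESeq2 gave an adjusted p of 8.14e-08. The gene named in the label was thus at its lower level in the labelled line, but the call depended on the test.

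Csn3 encodes kappa-casein, which coats the micelle and keeps it soluble. Its level was 14320, 21970 and 15430 CPM in delCsn1s2b-E tissue and 1448 and 301 CPM in delCsn3-PE tissue. The pair of delCsn3-PE libraries stood at 8.40% and 1.75% of the delCsn1s2b-E mean, so they were 4.81-fold apart from each other, the widest gap within a line among the casein genes. The log2 fold change was 4.30 (SE 0.72, 95% interval 2.60 to 6.01), with an adjusted p of 0.211 by edgeR and 7.11e-06 by DESeq2. With either delCsn3-PE library left out, 1 library remains in that line and is assumed to vary like the delCsn1s2b-E libraries, which drops the gap between the delCsn3-PE libraries from the spread. The edgeR adjusted p was then 0.00623 without the first and 0.0428 without the second, and neither value bears on how stable the call is.

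Csn1s1, Csn2 and Csn1s2a encode the alpha-S1, beta and alpha-S2-like caseins that make up most casein mRNA. Csn1s1 was at 36330, 54610 and 42440 CPM in delCsn1s2b-E tissue and at 60310 and 31680 CPM in delCsn3-PE tissue. Csn2 was at 43340, 66410 and 49590 CPM against 65040 and 36320 CPM. Csn1s2a was at 69880, 110200 and 77670 CPM against 108700 and 60820 CPM. For each of these genes the delCsn1s2b-E libraries lay between the delCsn3-PE libraries or overlapped them. The log2 fold changes were -0.05 for Csn1s1 (95% interval -0.99 to 0.89), 0.07 for Csn2 (-0.87 to 1.01) and 0.02 for Csn1s2a (-0.99 to 1.03), so differences of up to about 1 on the log2 scale could not have been told from none.

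**Figure D1:**
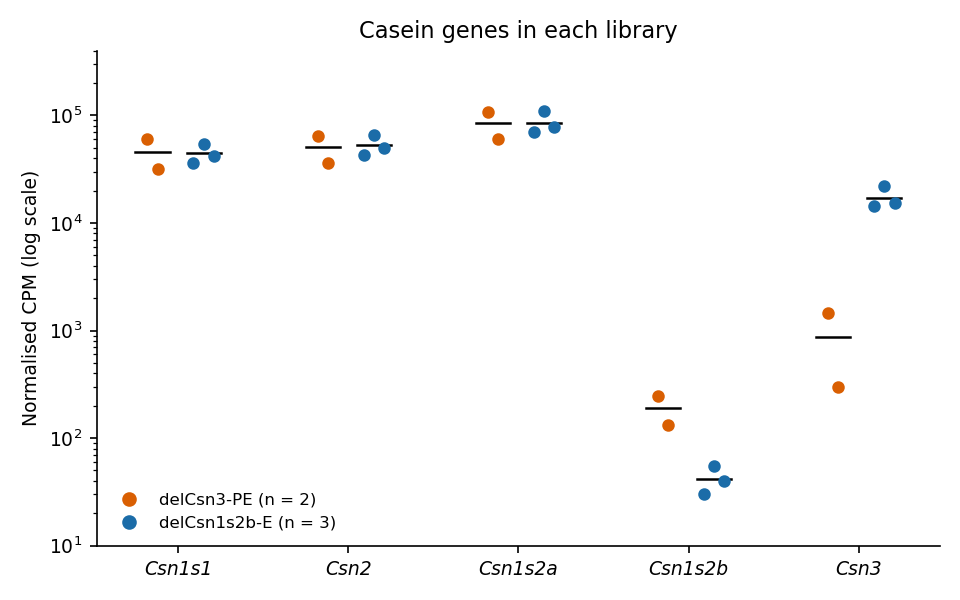
Levels of the 5 casein genes (TMM-scaled CPM, log axis), where each point is 1 library of delCsn1s2b-E or delCsn3-PE and a bar marks each mean. Csn1s2b and Csn3 separate the lines in opposite directions, and Csn1s1, Csn2 and Csn1s2a overlap.

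Total casein mRNA varied between libraries of 1 line, so each affected gene was also set against a neighbour in the same library. In the delCsn1s2b-E libraries there were 2331, 2021 and 1940 Csn1s2a reads for each Csn1s2b read, and in the delCsn3-PE libraries 443 and 457. This ratio was 4.64-fold higher in delCsn1s2b-E tissue and varied little within either line (two-sided exact permutation p = 0.2, the smallest the design allows). The ratio of Csn2 to Csn3 reads was 3.03, 3.02 and 3.22 in delCsn1s2b-E tissue and 44.9 and 121 in delCsn3-PE tissue, 23.8-fold higher in the latter (exact permutation p = 0.2). The ratio of Csn2 to Csn1s1, where neither gene is named in a label, was 1.19, 1.22 and 1.17 against 1.08 and 1.15.

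The 3 WT and 4 delS1-4 libraries of the series at p18, the latter from a line whose label names an enhancer deletion S1-4 and no more, hold far more ribosomal reads: Rn45s took 29.7 to 42.9% of their reads and 0.0765 to 0.924% here. Ratios within a library are the values least touched by that gap. In WT tissue there were 155.5, 498 and 642 Csn1s2a reads for each Csn1s2b read and 3.77, 3.79 and 4.00 Csn2 reads for each Csn3 read. The delCsn1s2b-E line therefore stood beyond the WT libraries in the first ratio and slightly below them in the second, whereas the delCsn3-PE line stood within the WT range in the first and beyond it in the second. In delS1-4 tissue both ratios were high, at 1356 to 5767 and 144.8 to 254.9. A ratio does not say which of its genes moved. On a scale common to the 12 libraries at p18, Csn1s2b stood at 24.36, 45.65 and 32.95 CPM in delCsn1s2b-E tissue. It stood at 207.3, 60.02 and 39.94 CPM in WT tissue, so these libraries overlapped. Csn1s2a averaged 71000 CPM in delCsn1s2b-E, 70320 CPM in delCsn3-PE and 29260 CPM in WT tissue. Csn3 stood at 1212 and 245.6 CPM in delCsn3-PE and at 4838 to 6145 CPM in WT tissue.

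**Figure D2:**
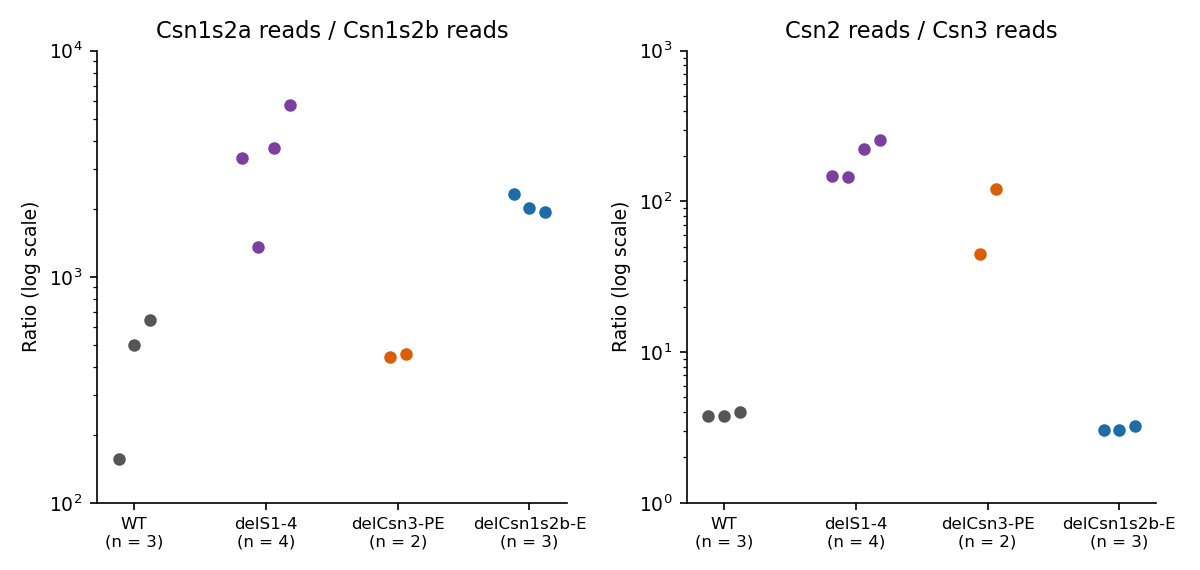
Ratios of reads within each library, Csn1s2a to Csn1s2b and Csn2 to Csn3 (log axes), for the delCsn1s2b-E and delCsn3-PE libraries beside the WT and delS1-4 libraries at p18. Each deletion line departs from WT in the ratio that holds the gene of its label. The delCsn1s2b-E libraries also lie slightly below WT in the other ratio, and delS1-4 libraries are high in both.

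Within and beside the locus few other genes separated the lines. Odam, an enamel and secretory epithelium gene between Csn1s2b and Csn3, had 7, 4 and 7 reads in delCsn1s2b-E tissue and 1 and 3 in delCsn3-PE tissue (log2 fold change 1.67, SE 0.65, adjusted p = 0.899). Prr27 had 0 reads in all 5 libraries, which allows up to 3 reads in each. Within 1 Mb of the locus 16 genes were tested. None was called by edgeR, and 4 had an unadjusted p under 0.05 (25% against 5.21% over all genes). These were Csn1s2b and Csn3, the genes named in the labels, Jchain, and Odam, which had 22 reads in total. DESeq2, which called 0.162% of all genes higher and 0.493% lower, called Csn1s2b, Csn3 and Jchain.

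Among the flanking genes the sulfotransferases Sult1d1 and Sult1e1, upstream of Csn1s1, had log2 fold changes of -0.01 and 0.51. Downstream of Csn3, Utp3 (-0.14), Rufy3 (-0.12), Grsf1 (0.06), Mob1b (0.21) and Dck (-0.02) lay close to 0. Jchain, which encodes the joining chain of secreted antibodies and is made by plasma cells, was the exception. It was at 19.7, 7.39 and 14.3 CPM in delCsn1s2b-E tissue and at 68.7 and 100.2 CPM in delCsn3-PE tissue (log2 fold change -2.61, SE 0.37, adjusted p = 0.114 by edgeR and 5.6e-09 by DESeq2). On the scale common to the 12 libraries at p18, Jchain averaged 3.50 CPM in WT and 20.6 CPM in delS1-4 tissue. It averaged 69.6 CPM in delCsn3-PE and 11.3 CPM in delCsn1s2b-E tissue, so the delCsn3-PE levels were the high ones. The 11 B and plasma cell genes summed to 33.7 to 49.0 CPM against 102 and 142 CPM, and the part of plasma cells in the Jchain result was not tested. In these bulk samples fewer cells of a type and less RNA per cell cannot be told apart.

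STAT5 targets and factors of the mammary enhancers were measured as controls. Cish, a direct STAT5 target, had a log2 fold change of 0.35 (adjusted p = 0.947), and Krt18, a luminal keratin, one of -0.28. Stat5a and Stat5b were at -0.01 and 0.00. The factors Nfib (0.22), Nr3c1, the glucocorticoid receptor (0.16), and Elf5 (0.09) were also near 0. None of these passed a test.

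Across all 16635 genes, edgeR called 9 lower in delCsn1s2b-E tissue (0.0541%) and 0 higher (0%). At an unadjusted p under 0.05, 437 genes were higher (2.63%) and 429 lower (2.58%), which is close to the share that 0.05 itself gives. DESeq2 called 27 higher (0.162%) and 82 lower (0.493%) of 16633. The libraries of the lines did not overlap for 1813 genes higher (10.9%) and 1673 lower (10.1%). The 9 genes were Oas1a, Oas2, Oasl2, Rtp4, Usp18 and Ifit1 from the interferon list, and Gm15446, Pyhin1 and Slfn8 outside it. DESeq2 called all 9 too.

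The number of calls moved with single libraries. Without delCsn1s2b-E replicate 1 or replicate 3, 0 genes were called lower, and without replicate 2, 4 were. Without delCsn3-PE replicate 1, 21 were called lower, and without replicate 2, 19, but these fits have 1 delCsn3-PE library and take all their spread from the delCsn1s2b-E libraries, so they cannot be set beside the others. All 9 genes stayed lower in delCsn1s2b-E tissue under each of 17 alternative settings. They were called on these same libraries, which do not overlap for them. Leaving out 1 library could therefore not have turned their direction, which is no test of stability.

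The promoters of called genes are shown here because the interferon-stimulated response element can be read in them directly. The element was searched on both strands, as GAAA, any 2 bases and GAAA again, or TTTC, any 2 bases and TTTC again, in the 250 bases before each start site, taken from RefSeq on GRCm38.p6, and is set in capitals. Of the 9 called genes 5 had a promoter in the table, and 3 of these held a match. Of the 30 interferon-stimulated genes 21 had a promoter and 12 held a match, and over all 32851 promoters 978 did (2.98%). Ifit1 has matches that begin 104 and 85 bases before the start (chr19:34640639-34640888, plus strand).
Ifit1: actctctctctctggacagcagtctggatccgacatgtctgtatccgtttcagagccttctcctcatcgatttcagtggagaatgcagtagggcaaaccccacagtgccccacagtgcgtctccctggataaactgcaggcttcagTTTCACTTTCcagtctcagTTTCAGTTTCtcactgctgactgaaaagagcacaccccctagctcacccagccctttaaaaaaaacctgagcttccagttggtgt
Oas1a has matches that begin 20 and 14 bases before the start and overlap each other (chr5:120907526-120907775, minus strand).
Oas1a: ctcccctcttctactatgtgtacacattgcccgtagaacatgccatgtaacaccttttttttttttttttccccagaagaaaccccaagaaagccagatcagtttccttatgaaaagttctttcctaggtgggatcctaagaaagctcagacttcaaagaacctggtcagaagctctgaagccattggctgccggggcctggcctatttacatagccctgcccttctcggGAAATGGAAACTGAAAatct
Slfn8, in the first of its entries, has 1 match, 48 bases before the start (chr11:83020811-83021060, minus strand).
Slfn8: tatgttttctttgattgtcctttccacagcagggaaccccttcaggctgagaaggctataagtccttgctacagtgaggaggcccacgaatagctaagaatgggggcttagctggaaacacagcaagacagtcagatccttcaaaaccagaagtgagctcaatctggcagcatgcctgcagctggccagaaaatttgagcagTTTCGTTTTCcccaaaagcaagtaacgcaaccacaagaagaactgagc
Oasl2 is shown as a called gene without these letters in the window (chr5:114896684-114896933, plus strand).
Oasl2: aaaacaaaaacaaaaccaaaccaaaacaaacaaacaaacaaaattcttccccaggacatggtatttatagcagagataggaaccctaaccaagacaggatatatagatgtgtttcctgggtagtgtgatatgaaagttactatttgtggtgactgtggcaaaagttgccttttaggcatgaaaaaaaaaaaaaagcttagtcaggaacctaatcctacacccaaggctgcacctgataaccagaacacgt
Gm15446 also had none. Oas2, Rtp4, Usp18 and Pyhin1 had no entry. A match is a run of letters and not a measured binding site.

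The 2′-5′-oligoadenylate synthetases make the messenger that activates RNase L. Oas1a (chr5:120896256-120907521) had 0 reads in each of the delCsn1s2b-E libraries and 82 and 121 in the delCsn3-PE libraries, 3.07 and 3.55 CPM. Against the limit of 3 reads per library it was at least 30.4-fold lower in delCsn1s2b-E tissue (edgeR adjusted p = 0.0364). Oas1a shares 57.6% of its 50-base stretches with Oas1g, and reads that did not align uniquely were counted for neither gene. Oas1g likewise had 0 reads in delCsn1s2b-E tissue and was at least 8.81-fold lower, with an adjusted p of 0.132 by edgeR and 8.5e-05 by DESeq2. Both genes with shared sequence were thus undetected in 1 line and measured in the other.

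Oas2 (chr5:120730333-120749853) had 1, 2 and 4 reads in delCsn1s2b-E tissue and 96 and 175 in delCsn3-PE tissue (log2 fold change -5.62, SE 0.44, adjusted p = 0.0208). Oasl2 (chr5:114896936-114912234), which encodes an oligoadenylate synthetase-like protein, was at 1.24, 1.14 and 1.71 CPM against 8.81 and 15.7 CPM (-3.17, SE 0.31, adjusted p = 0.0364). Oas3 had 3 reads in the 3 delCsn1s2b-E libraries together and 51 in the other line, a ratio of 23.2 with a 95% counting interval of 7.50 to 116, and an adjusted p of 0.351. Oas1b and Oasl1 were not called by edgeR, with log2 fold changes of -2.16 and -2.67. DESeq2 called Oas3, Oas1b and Oasl1 (adjusted p = 0.020, 0.00065 and 0.0040).

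Rtp4 (chr16:23520291-23614222) encodes an interferon-induced protein of the receptor transporter protein family. It was at 1.07, 0.904 and 0.582 CPM in delCsn1s2b-E tissue and at 11.6 and 20.2 CPM in delCsn3-PE tissue (log2 fold change -4.21, SE 0.33, adjusted p = 0.0208). Ifit1 (chr19:34640871-34650009), whose protein binds foreign RNA caps, was at 1.44, 1.14 and 1.24 CPM against 8.85 and 16.8 CPM (-3.33, SE 0.30, adjusted p = 0.0340). Usp18 (chr6:121245906-121270917), which removes the ubiquitin-like modifier ISG15 and restrains the interferon receptor, was at 0.769, 0.747 and 0.764 CPM against 4.39 and 6.60 CPM (-2.85, SE 0.26, adjusted p = 0.0340). The delCsn1s2b-E libraries lay close together for these genes and every delCsn3-PE library was several-fold above them.

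Outside the list, Gm15446 (chr5:109923400-109943936), a predicted gene, had 1, 0 and 0 reads in delCsn1s2b-E tissue and 84 and 115 in delCsn3-PE tissue. The ratio was 271 with a 95% counting interval of 48.1 to 10770, and the edgeR adjusted p was 0.0208. Pyhin1 (chr1:173630917-173647928), of the interferon-inducible family of DNA-binding proteins, was at 1.60, 1.65 and 1.38 CPM against 5.92 and 6.33 CPM (log2 fold change -1.99, SE 0.20, adjusted p = 0.0369). Slfn8 (chr11:83002158-83020810), of the Schlafen family, was at 2.14, 2.04 and 1.38 CPM against 8.62 and 10.6 CPM (-2.37, SE 0.24, adjusted p = 0.0369). Of the 9 genes, 4 lie on chromosome 5, where 996 genes were tested, and 0 lie within 5 Mb of the casein locus, where 53 were. A test against a change of 1 on the log2 scale called Gm15446, Oas2 and Rtp4.

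**Figure D3:**
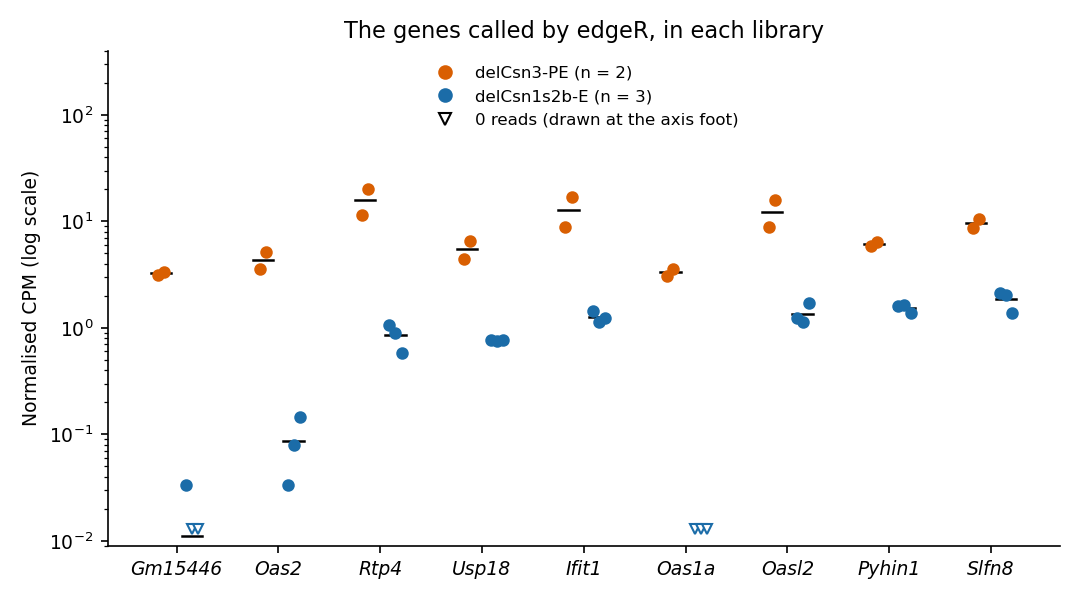
Levels of the 9 genes called by edgeR in each library (TMM-scaled CPM, log axis; libraries with 0 reads are drawn at the foot of the axis), with a bar at each mean above 0. Every delCsn1s2b-E point lies below every delCsn3-PE point.

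The list of 30 interferon-stimulated genes was tested as named members rather than as a set. By edgeR 6 were lower and 0 higher, and by DESeq2 20 were lower. At an unadjusted p under 0.05, 27 were lower, against 2.58% of all genes, and for 25 the libraries did not overlap, against 10.1% of all genes. The median log2 fold change was -2.09, and it was -2.09 as well with Oas1a and Oas1g at their bounds, whereas the median over all genes was 0.00. The list summed to 475, 389 and 397 CPM in delCsn1s2b-E tissue and to 631 and 847 CPM in delCsn3-PE tissue.

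Just outside the threshold of 0.05 stood Ifit3, an RNA-binding partner of Ifit1, with a log2 fold change of -2.78, and Ifi44 with -3.44 (adjusted p = 0.0552 for both). Stat2 (-1.39) and Irf7 (-2.04), which transmit and amplify the interferon signal, and Bst2 (-0.98), which tethers budding viruses, had an adjusted p of 0.0557. The antiviral GTPase genes Mx1 and Mx2 were at 0.167 to 0.354 and 0.0364 to 0.234 CPM in delCsn1s2b-E tissue and at 1.46 and 4.69, and 1.31 and 2.81 CPM, in delCsn3-PE tissue. They were not called by edgeR, with adjusted p of 0.184 and 0.154, and DESeq2 called both (adjusted p = 2.5e-05 and 3.4e-05). DESeq2 called Ifit3, Ifi44, Stat2, Irf7 and Bst2 as well. Among the members with small differences were Gbp2 (-0.32) and Ifih1 (-0.36).

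Set beside WT and delS1-4 libraries on a scale common to the 12 libraries at p18, the interferon list summed to 566 to 600.1 CPM in WT tissue, 564 to 659 CPM in delS1-4 tissue, 528 and 691 CPM in delCsn3-PE tissue and 326 to 386 CPM in delCsn1s2b-E tissue. The delCsn1s2b-E libraries lay below all 7 WT and delS1-4 libraries for 25 of the 30 genes, where 15% of all genes did, and the members called by edgeR were chosen on these same delCsn1s2b-E libraries. For delCsn3-PE this held for 4 of 30, where 16.8% of all genes did. On this scale Rtp4 stood at 10.4 to 12.2 CPM in WT tissue, 7.45 to 10.5 CPM in delS1-4 tissue, 9.70 and 16.5 CPM in delCsn3-PE tissue and 0.479 to 0.869 CPM in delCsn1s2b-E tissue. For the list sum and for Rtp4, the delCsn3-PE levels were therefore near those of WT and delS1-4 tissue. The delCsn1s2b-E levels were the lower ones. The 4 members below all 7 libraries in delCsn3-PE tissue were Oas2, Oas3, Oasl1 and Irf7, and 2 members were above all 7. Irf7 was at 9.98 and 11.5 CPM there, against 12.3 to 19.5 CPM in the 7 libraries. The sets differ in ribosomal reads as given above, and the part of that gap in these levels was not tested.

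**Figure D4:**
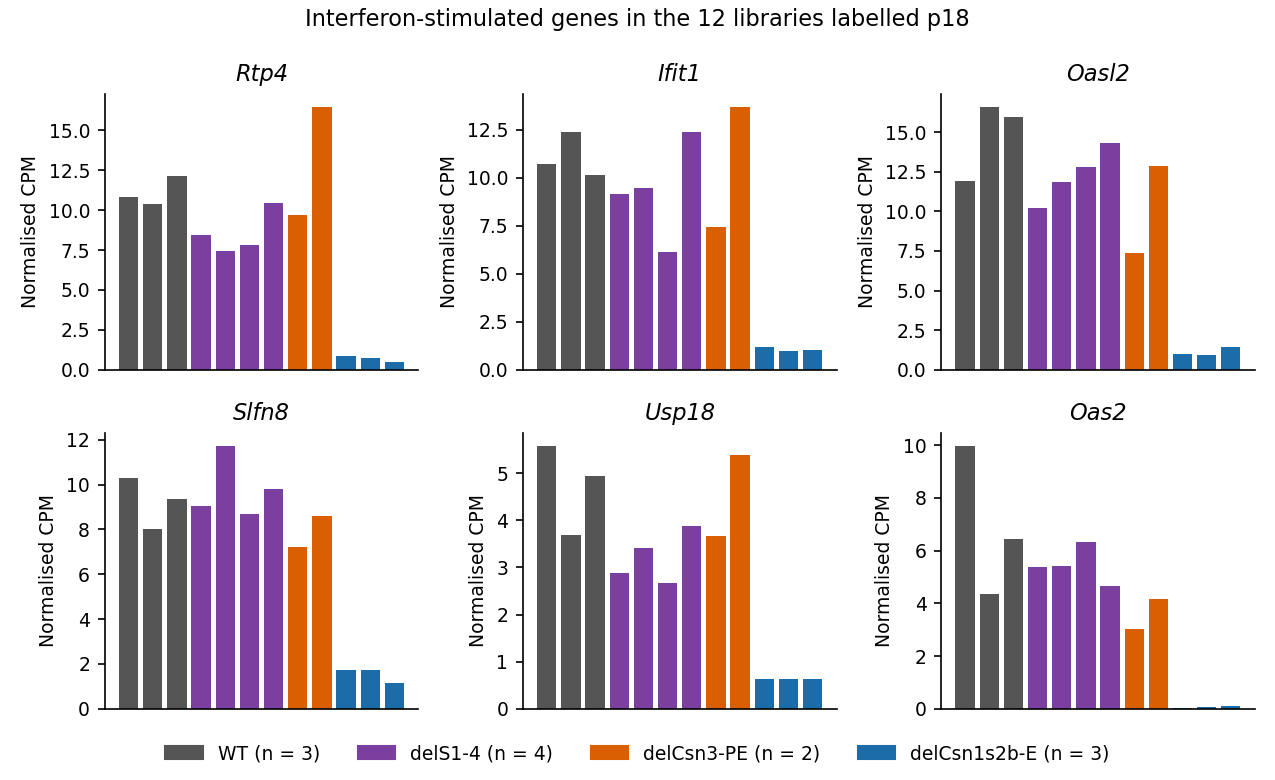
Levels of Rtp4, Ifit1, Oasl2, Slfn8, Usp18 and Oas2 in each of the 12 libraries labelled p18 (CPM on the scale common to them; each bar is 1 library, coloured by group). In every panel the 3 delCsn1s2b-E bars are the lowest, and for Rtp4 they lie at 0.479 to 0.869 CPM against 7.45 to 16.5 CPM in the other 9 libraries.

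Acute phase and NF-kB genes, which mark inflammation, were also measured. Of 23 tested, edgeR called 0 and DESeq2 called 5 lower, against 0.493% of all genes. At an unadjusted p under 0.05, 9 were lower, against 2.58% of all genes, and the median log2 fold change was -0.56. The serum amyloid gene Saa2 was at 3.18, 5.03 and 7.27 CPM in delCsn1s2b-E tissue and at 84.3 and 38.2 CPM in delCsn3-PE tissue (-3.57, SE 0.42, edgeR adjusted p = 0.0557). Saa1 was at 3.94, 6.21 and 10.3 CPM against 136 and 49.6 CPM (-3.77, adjusted p = 0.0908), and it shares 31.1% of its 50-base stretches with Saa2. On the scale common to the 12 libraries at p18, Saa2 averaged 5.24 CPM in WT and 14.8 CPM in delS1-4 tissue. It averaged 50.9 CPM in delCsn3-PE and 4.26 CPM in delCsn1s2b-E tissue. Saa1 averaged 6.14, 18.7, 77.1 and 5.615 CPM in the same order. For both genes the delCsn3-PE levels were thus the high ones, unlike for the interferon list. Saa3, counted with the milk proteins outside the locus as well, was at -3.90 (adjusted p = 0.114 by edgeR and 8.1e-08 by DESeq2), and Lcn2, an iron-binding acute phase protein, at -0.90 (adjusted p = 0.389 by edgeR and 0.0029 by DESeq2).

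Immediate early genes, which respond within minutes to growth factors or to tissue handling, gave nearly the same counts. Of 22 tested, edgeR called 0 and DESeq2 5 lower (0.493% of all genes), and 9 were lower at an unadjusted p under 0.05 (2.58% of all genes), with a median of -0.33. Jun had a log2 fold change of -0.999 (adjusted p = 0.114) and Fos one of -0.97 (adjusted p = 0.229), and DESeq2 called both. Macrophage markers stood at 525, 412 and 391 CPM in sum in delCsn1s2b-E tissue and at 524 and 594 CPM in delCsn3-PE tissue. The ranges of the sum met, but C1qa, C1qb, C1qc, Lyz2, Cd68, Adgre1, Csf1r, Itgam and Trem2 were lower in delCsn1s2b-E tissue without overlap. Mrc1, Cd163 and Mertk overlapped, and 10.1% of all genes were lower without overlap. Of 12 macrophage genes 5 were lower at an unadjusted p under 0.05, against 2.58% of all genes, and DESeq2 called 0. The median of the macrophage genes was -0.38, with C1qa at -0.62 (adjusted p = 0.578) and C1qb at -0.59. The part of these cells in the interferon and acute phase values was not tested.

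Among 23 milk protein genes outside the locus, 0 were called by edgeR, and DESeq2 called 2 lower, Saa3 and Lcn2. At an unadjusted p under 0.05, 7 were lower, against 2.58% of all genes, with a median of -0.44. Lalba, which encodes the alpha-lactalbumin needed for lactose, was at 300, 1230 and 496 CPM against 1909 and 398 CPM, and Wap, the whey acidic protein, at 5483, 13130 and 13510 CPM against 22650 and 8057 CPM. For both genes the second delCsn3-PE library lay among the delCsn1s2b-E libraries. The log2 fold changes were -0.77 and -0.52.

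The enzymes and transporters of milk secretion held no call. Of 17 lactose genes (median -0.09, with Galk1 -0.34, Galt -0.23), 16 fatty acid synthesis genes (0.05, with Fasn 0.20, Acss2 -0.18), 19 fatty acid uptake and fat globule genes (-0.07, with Plin2 -0.31, Plin3 -0.20) and 23 sterol genes (0.15, with Stard4 0.38, Dhcr7 0.24), 0 passed even the unadjusted p of 0.05. The same held for 19 genes of calcium, zinc, phosphate and water transport (0.05, with Stim1 -0.16, Aqp1 0.18) and for 21 genes of the unfolded protein response (0.07, with Dnajb9 0.37, Xbp1 -0.22). Among 20 amino acid transporters 1 was higher and 2 lower at that unadjusted p (median -0.11, with Slc1a1 -0.80, Slc7a8 0.61). Among 22 amino acid stress genes 0 were higher and 2 lower (-0.16, with Slc7a11 -0.57, Eif4ebp1 -0.40), where 2.63% and 2.58% of all genes were. These programmes, which fill and secrete milk, gave no difference that either test called.

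Signalling and regulatory lists held some genes past the unadjusted p of 0.05. Of 18 genes of prolactin, JAK2 and STAT5 signalling 3 were lower at an unadjusted p under 0.05 (median 0.02), among them Stat3 (-0.56, adjusted p = 0.697). Over all genes 2.63% were higher and 2.58% lower at that p. Of 24 transcription factors 4 were higher and 1 lower (0.15), with Nfia at 0.51 (adjusted p = 0.504) and the oestrogen receptor gene Esr1 at 0.51 (adjusted p = 0.591). DESeq2 called Nfia higher. Of 18 clock genes 3 were higher and 1 lower (0.16; Per1 0.36, Ciart 0.80). The 26 cell cycle genes (-0.08, with Mki67 0.33, Ccnb2 -0.43), 18 heat shock and hypoxia genes (0.00, with Adm -0.53, Hsph1 0.37) and 4 genes that differ between C57BL/6 substrains (0.00, with Cyfip2 -0.27, Ide 0.15) held 0 at that level. Of 13 tight junction genes 1 was lower (-0.15; Cldn4 -0.78, adjusted p = 0.613), and of 20 collagen and matrix genes 1 was higher (0.26; Bgn 0.38, Col15a1 0.54).

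Cell type markers checked the tissue and its composition. Milk-secreting cell markers were abundant in every library, and of 8 tested 0 differed at an unadjusted p under 0.05 (median -0.04). Over all genes 2.63% were higher and 2.58% lower at that p, the share to set beside each count here. Of 13 luminal genes 4 were lower (-0.28; Krt8 -0.49), and of 12 hormone-sensing genes 1 was higher and 1 lower (0.23; Ly6a -0.96, adjusted p = 0.238 by edgeR and 0.0018 by DESeq2). Of 12 myoepithelial genes 1 was lower (-0.11; Krt14 -0.74, Krt17 -0.83). Adipocyte (16 genes, median -0.11; Lipe -0.36, Cfd -0.52) and fibroblast markers (10 genes, 0.05; Col1a1 0.48, Pi16 -0.68) held 0, and of 8 brown adipocyte genes 1 was lower (-0.17; Ucp1 -2.94, Cidea -0.61). Of 12 endothelial genes 4 were higher (0.30; Cdh5 0.59, adjusted p = 0.766; Emcn 0.55).

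Immune and minor cell types were counted in the same way. Of 11 B and plasma cell genes 3 were lower at an unadjusted p under 0.05 (median -0.32), and DESeq2 called 2. Jchain and Mzb1 were among the 3, the latter at -2.83 (adjusted p = 0.351). Over all genes 2.63% were higher and 2.58% lower at that p. Of 11 T cell genes 1 was lower (-0.03; Cd4 -0.66, Il7r -0.29), and of 6 neutrophil genes 1 was higher (0.16; S100a9 1.47, adjusted p = 0.805; S100a8 -0.71). Mast cell (8 genes, 0.20; Hdc 0.55, Mcpt4 0.54), nerve (10 genes, 0.03; Pmp22 0.24), keratinocyte (5 genes, -0.40; Krt27 -1.17, Krt10 0.25) and salivary markers (4 genes, 0.16; Bhlha15 0.59, Amy1 -0.27) held 0. Of 4 erythroid genes 2 were higher (0.64; Alas2 0.59). The 16 skeletal muscle genes had a median of 3.24 with 0 past the unadjusted threshold: Ttn, the sarcomere spring titin, was at 27.7, 30.2 and 915 CPM against 4.20 and 28.9 CPM (4.28, adjusted p = 0.947), and Tnnt3, a fast troponin, was at 3.86. The sums of these genes, given above, were high in the third delCsn1s2b-E library alone.

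**Figure D5:**
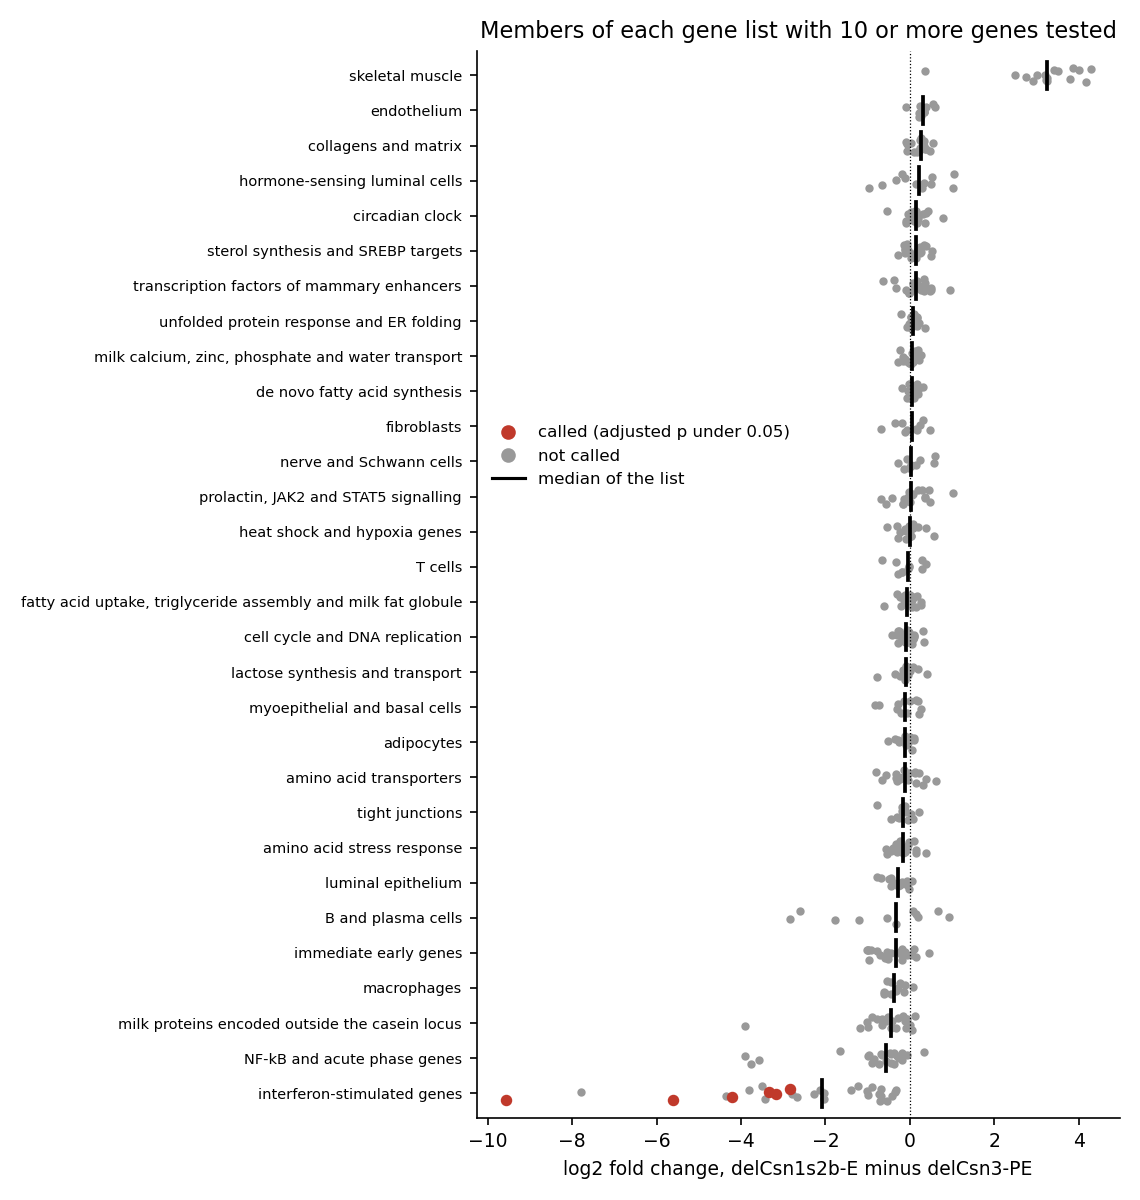
Log2 fold change (delCsn1s2b-E minus delCsn3-PE, horizontal axis) of the members of each list with at least 10 genes tested; points are genes, red where edgeR called them, and a bar marks the list's median. The 6 red points are all in the interferon list, whose median is -2.09, and the skeletal muscle list lies at the other end with 3.24 and no call.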

How the data were processed

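The deposited values are raw read counts per gene, 1 table per library. Per the submitters' processing notes the authors used Trimmomatic, STAR, HTSeq and mm10 on ribosome-depleted, strand-specific, paired-end libraries. Summary lines that name no gene (no feature 13.2 to 20.9%, ambiguous 0.672 to 0.821% and not unique 8.57 to 9.62% of the total) stayed out of library sizes and tests, and 24421 genes remained.

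Groups came from the genotype labels. The 5 libraries were fitted alone with edgeR 4.0.16 (R 4.3.3; TMM, at least 10 reads in total, quasi-likelihood F test, Benjamini-Hochberg 0.05). SEs and 95% intervals came from the F statistic and its degrees of freedom, 3 residual and 4.14 prior, with a common coefficient of biological variation of 0.198. DESeq2 1.42.0 was the main alternative, and the scripts were tested on simulated counts. Counting intervals are exact, and limits of 3 reads and intervals cover counting error only. Ratios were tested by exact permutation, two-sided.

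Genes named by rule are the casein, interspersed and flanking genes, the control genes, up to 10 called genes in each direction (no predicted genes, a mean of at least 1 CPM, libraries not overlapping), in each list up to 4 called members or, where there were none, the 2 members of smallest p, and the 2 called genes of chromosome 5 nearest the locus. Others, such as Gm15446, Ifit3, Lalba, Wap, Oas1g, Oas3, Mx1, Gm14420 and the genes of the closing section, were chosen after their values were seen, and some genes that the rule names are not reported here. The libraries and lists were chosen with earlier results of these data known. Positions came from the GRCm38 annotation and promoters from RefSeq (GRCm38.p6).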

Additional observations from a re-analysis of the deposited data

How the results depend on the processing

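The number of genes called moved with the test, while the direction of the 9 called genes and of Csn1s2b and Csn3 did not turn under any of 17 settings. The libraries of the lines do not overlap for these genes. Leaving out 1 library could therefore not have turned them, and the fixed direction is no test of stability. Genes higher in delCsn1s2b-E tissue numbered 0 as reported, 27 with DESeq2, 2 with scaling by totals alone, 1 with no filter beyond 1 read, 2 with WT libraries as an added group and 11 with 1 factor of unwanted variation removed. Genes lower numbered 9 as reported, 82 with DESeq2, 16 by totals alone, 34 with no filter, 15 with counts thinned to the smallest library, 3 when tested against a log2 fold change of 1, 29 with the WT group and 60 with 1 factor removed. Interferon-stimulated genes called lower numbered 6 as reported, and under the corresponding settings 20 with DESeq2, 16 with no filter, 2 against a log2 fold change of 1, 16 with the WT group and 19 with 1 factor removed. Leaving out 1 library in turn gave 0 to 2 genes higher, 0 to 21 lower and 0 to 11 interferon-stimulated genes. Of the 9 called genes, 9 were called with DESeq2, 4 without delCsn1s2b-E replicate 2 and 0 without delCsn1s2b-E replicate 1 or 3. Fits without a delCsn3-PE library keep 1 library in that line, assumed to vary like the delCsn1s2b-E libraries, and say nothing about stability. Genes called within 1 Mb of the locus numbered 3 with DESeq2 and 0 as reported. The cause of these shifts was not tested. The scaling that leaves out Rn45s and Lars2, and the alternatives for the interferon list, were added after seeing the data.

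Csn1s2b passed the threshold with DESeq2 (-2.19), by totals alone (-2.18), with no filter (-2.19) and with 1 factor removed (-2.16), and ranged from -2.56 to -1.68 when 1 library was left out. Csn3 passed with DESeq2 (4.30), by totals alone (4.39), with no filter (4.30), with the WT group (4.29) and with 1 factor removed (4.65), and ranged from 3.57 to 5.84. Csn1s1 turned to 0.0026 with 1 factor removed. When 1 library was left out, Csn1s1 ranged from -0.44 to 0.49, Csn2 from -0.29 to 0.55 and Csn1s2a from -0.34 to 0.50, so these genes have no fixed direction.

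Same-numbered libraries did not deviate together (correlation -0.39 for number 1 and -0.62 for number 2). The deviations of the 2 delCsn3-PE libraries from their mean mirror each other, so these values cannot decide whether the numbers pair the samples. With the replicate block, 0 genes were called in either direction, 0 interferon-stimulated genes were called, and Csn1s1 was at 0.027, Sult1d1 at 0.18, Dck at 0.060 and Stat5b at -0.071.

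Genes near 0 turned sign. Sult1d1 was at 0.011 by totals alone, Dck at 0.0050 with thinned counts, and Stat5b at -0.017 by totals alone, -0.011 scaled without milk protein genes, -0.0022 with no filter, -6e-04 with the WT group and -0.0016 with 1 factor removed. Leaving out 1 library in turn moved Sult1d1 between -0.24 and 0.25, Sult1e1 between -0.30 and 1.90, Rufy3 between -0.33 and 0.13, Grsf1 between -0.042 and 0.17, Mob1b between -0.023 and 0.48, and Dck between -0.081 and 0.047. It moved Stat5a between -0.15 and 0.15, Stat5b between -0.077 and 0.11, Nr3c1 between -0.15 and 0.56, Elf5 between -0.26 and 0.55, Fasn between -0.053 and 0.36, Acss2 between -0.50 and 0.24, and Ide between -0.044 and 0.37. Lalba lay between -1.54 and 0.76, Wap between -1.08 and 0.41, Cidea between -1.49 and 1.23, Il7r between -0.58 and 0.073, and Pmp22 between -0.024 and 0.56.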

Other observations

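A few metabolic and epithelial genes outside the lists were called by DESeq2 and not by edgeR. Angptl4, which encodes an inhibitor of lipoprotein lipase, was at 73.1, 39.3 and 63.3 CPM in delCsn1s2b-E tissue and at 177 and 189 CPM in delCsn3-PE tissue (log2 fold change -1.65, edgeR adjusted p = 0.132). Pdk4, a kinase that limits glucose oxidation, was at 22.7, 22.8 and 32.6 CPM against 105 and 58.2 CPM (-1.65, adjusted p = 0.199). In the other direction, Mest, an imprinted gene of the hydrolase family, was at 28.1, 21.8 and 20.2 CPM against 7.16 and 10.7 CPM (1.38, adjusted p = 0.199), and the transcription factor gene Tfcp2l1 at 67.4, 69.6 and 81.2 CPM against 33.1 and 41.0 CPM (0.97, adjusted p = 0.172). For each of these genes the libraries of the lines did not overlap, which held for 10.9% of all genes higher and 10.1% lower.

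Libraries of 1 line differed from each other in single genes. Trap1, a mitochondrial chaperone gene, was at 51.5, 55.2 and 12.1 CPM in the delCsn1s2b-E libraries and at 52.8 and 12.3 CPM in the delCsn3-PE libraries. Gm14420 and Gm14325 had 680 and 447 reads in the first delCsn3-PE library, 0 and 1 in the second, and 0 in all delCsn1s2b-E libraries, while the 7 WT and delS1-4 libraries had 153 to 277 and 112 to 232.

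The lines also did not overlap for a pair of other transcripts, both higher in delCsn1s2b-E tissue, as were 10.9% of all genes without overlap. The ribosomal transcript Rn45s was at 6344, 10520 and 4001 CPM against 1648 and 667 CPM (2.59, adjusted p = 0.427 by edgeR and 0.0316 by DESeq2), and Lars2 at 1438, 2461 and 2030 CPM against 457 and 87.2 CPM (2.86, adjusted p = 0.521 by edgeR and 0.0444 by DESeq2).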
